A study of Mus musculus with 3 samples.

Results

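Purine and adenosine signalling genes were followed across the cells of a mouse glioblastoma. The group held 10 genes, chosen by name out of 50262 gene rows: the ectonucleotidases Entpd1 and Nt5e, the adenosine deaminase Ada, the adenosine receptors Adora1, Adora2a, Adora2b and Adora3, and the nucleotide receptors P2ry6, P2rx4 and P2rx7. All 10 were measured, with between 147 unique molecular identifiers (UMIs) for Adora2b and 5828 for Entpd1 in the cells kept. Tumors labelled EGFR WT driven glioblastoma arose in mice that carried a conditional human EGFR transgene, lacked Cdkn2a and had a conditional luciferase reporter, so that every group shared these alleles. A Cre lentivirus injected into the brain of adult mice of both sexes and mixed background started the tumors, the mice used in experiments being 12 to 16 weeks old, and tumors were taken at an early, medium or late (labelled large) stage. The early material was pooled from 2 mice, each stage was 1 tumor sample, and viable cells of each were sorted into a CD45+ (leukocyte) and a CD45- fraction for inDrop single-cell RNA-seq.

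When cells are damaged or active they release ATP, which P2X channels such as P2rx4 and P2rx7 sense directly. On the cell surface Entpd1 (CD39) trims ATP and ADP to AMP, and Nt5e (CD73) turns AMP into adenosine, which dampens many immune responses through the adenosine receptors until it is taken up or deaminated by Ada. In brain, microglia are known for sensing nucleotides with P2Y receptors and for carrying CD39, and neurons and glia for the inhibitory A1 receptor.

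Of 20811 deposited cells, 17781 were kept. The 6 sums of a tumor sample and sort held 5381839 to 10808099 UMIs. Barcodes recurred between libraries: 2117 of 18335 distinct barcodes were seen in 2 or more of the 24 libraries. Of the libraries 2, both of the late CD45+ sort in the first run, held only 17 and 91 kept cells, and the number of member ratios between stages that were past 2-fold was 19 with or without either. Ptprc, which encodes CD45, was at 227 to 250.2 CPM, a gene's UMIs scaled to a total of 1000000, in the CD45+ sort and 3.59 to 15.9 in the CD45- sort. The female-specific Xist was at 302 CPM early, 2.67 medium and 1.11 late in CD45+ cells. With 1 sample a stage, the stage, the animal and this difference cannot be told apart, and libraries of one stage and sort are technical repeats of the same tissue. Clusters of cells were named "-like" from marker lists, with all purine genes left out of clustering and naming. Clusters whose leading genes did not settle a name are called by those genes. The T cell-like group also carried RNA of natural killer cells, with 7 markers of these together at 579 CPM against 3331 for 10 T cell markers.

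The first comparison asked which purine genes belonged to the leukocyte compartment. Entpd1, P2ry6, Adora3, Ada and P2rx4 were higher in CD45+ cells, and Adora1 and Nt5e were higher in CD45- cells. The ectonucleotidases, which act in sequence, thus differed in opposite directions between the sorts, although the Nt5e call sat at the threshold and was lost under several alternatives. By edgeR's quasi-likelihood test with the tumor sample as a block and Benjamini-Hochberg adjustment, 7 of the 10 passed at 0.05, 5 higher and 2 lower. Of all 18433 genes tested 46.1% passed (20.4% higher, 25.7% lower), and with library totals alone in place of TMM factors the split was 14.05% higher and 35.6% lower. Adora2a, Adora2b and P2rx7 did not pass. The sums mix cell types, and microglia-like cells were 77.5%, 22.2% and 49.6% of CD45+ cells, early to late, so fewer cells of a type and less RNA per cell cannot be told apart in them.

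**Figure D1:**
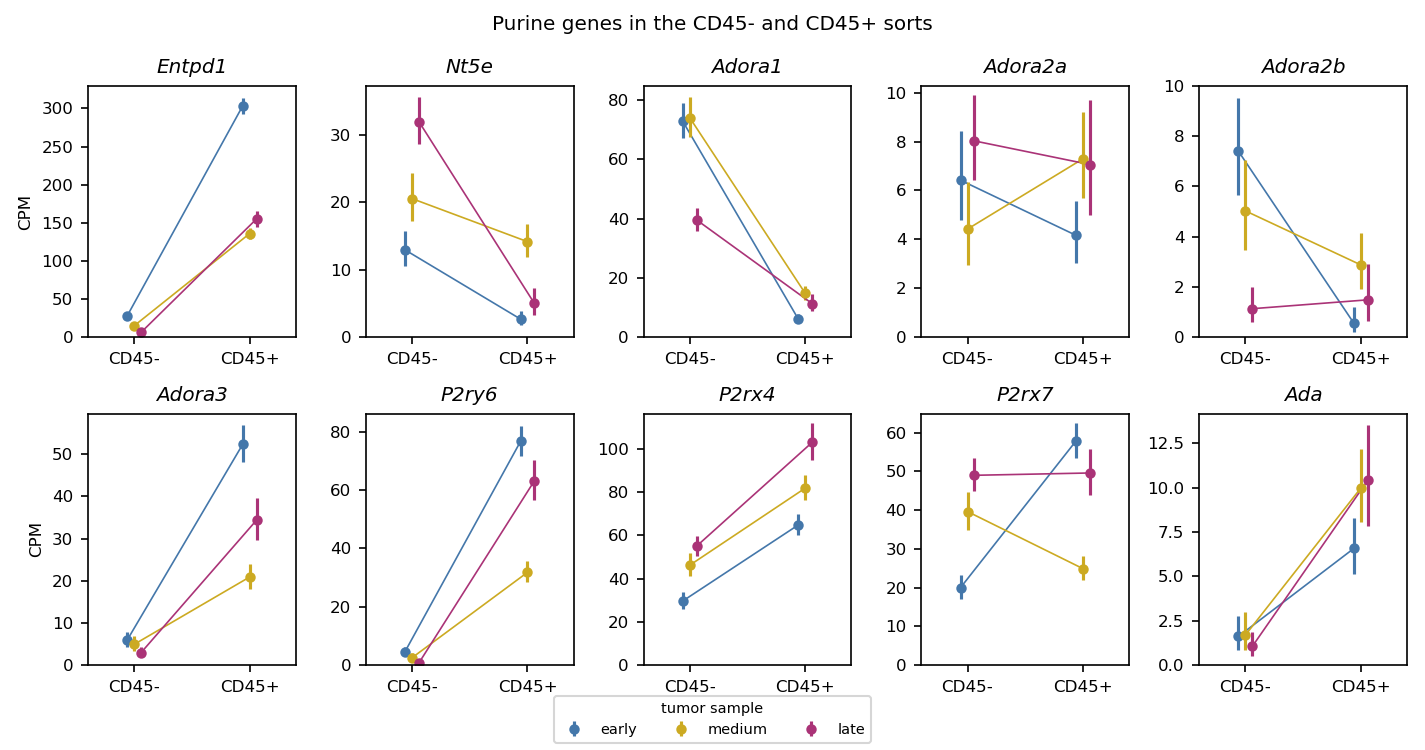
CPM (y axis, from 0) of each gene in the CD45- and CD45+ sorts (x axis) of the early, medium and late tumor sample. Points are sums over the cells kept, bars are 95% Poisson intervals for counting error and lines join the sorts of one sample; Entpd1, P2ry6, Adora3, P2rx4 and Ada rose toward CD45+ in all 3 samples, and Adora1 and Nt5e fell.

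Entpd1 was the most abundant member in leukocytes. In CD45+ cells it stood at 303 CPM early, 136 medium and 155 late, against 28.02, 14.9 and 6.33 in the CD45- cells. The sorts did not overlap. The log2 fold change was 4.09 ± 0.34 (SE, 3 tumor samples per sort; edgeR adjusted p = 0.000167).

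Nt5e ran the other way. In CD45- cells it was at 12.96, 20.6 and 32.0 CPM, early to late, and at 2.68, 14.2 and 5.02 in the CD45+ cells. It was lower in CD45+ cells within every sample, although the medium CD45+ value was above the early CD45- one. RNA of tumor cells was found in the CD45+ sums as well: the human EGFR transgene was at 1.85, 271 and 84.7 CPM and the 8 progenitor markers together at 46.1, 459 and 186, early to late, which moved with Nt5e there, and their part was not tested. Of the 138 Nt5e UMIs of the medium CD45+ sum, 65 lay in T cell-like and 29 in neutrophil-like cells. The log2 fold change was -1.40 ± 0.47 (SE; edgeR adjusted p = 0.0457). The call sat at the threshold: it was lost without the replicate block (log2 fold change -1.15, adjusted p = 0.176), without the early sample (-1.07, 0.207), without the late sample (-0.96, 0.185) and with every deposited cell (-1.39, 0.0520).

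Among the adenosine receptors, Adora3 and Adora1 divided by sort. Adora3, a Gi-coupled receptor, was at 52.4, 20.9 and 34.4 CPM in CD45+ cells (early, medium, late) and at 5.93, 4.88 and 2.93 in CD45- cells (log2 fold change 3.30 ± 0.31, SE; edgeR adjusted p = 0.000238). Adora1, which couples to Gi as well, was at 6.11, 14.8 and 11.3 in CD45+ cells and at 72.8, 74.1 and 39.6 in CD45- cells (log2 fold change -2.19 ± 0.37, SE; edgeR adjusted p = 0.00314). Neither gene's sorts overlapped. The Gs-coupled receptors were rarer: Adora2a lay between 4.16 and 8.03 CPM in all 6 sums (log2 fold change 0.33 ± 0.37, adjusted p = 0.506) and Adora2b between 0.56 and 7.41 (-1.05 ± 0.76, adjusted p = 0.305). Both genes' sorts overlapped, and the uncalled Adora2a difference had a log2 value of -0.04 with library totals alone.

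Of the nucleotide receptors, the UDP receptor P2ry6 had the widest gap of the group. It was at 76.7, 31.8 and 63.2 CPM in CD45+ cells (early, medium, late) and at 4.57, 2.44 and 0.66 in CD45- cells (log2 fold change 4.97 ± 0.52, SE; edgeR adjusted p = 0.000446). P2rx4, an ATP-gated channel, was at 64.9, 81.9 and 103 in CD45+ cells and at 29.6, 46.2 and 55.1 in CD45- cells (1.32 ± 0.18, adjusted p = 0.00111). It was thus well measured on both sides. P2rx7, the channel tied to inflammasome activation, was at 57.9, 24.9 and 49.6 in CD45+ cells and at 20, 39.6 and 49.0 in CD45- cells. The early sample was higher and the medium one lower in CD45+ cells (0.65 ± 0.39, adjusted p = 0.220). Ada was at 6.57, 9.97 and 10.4 in CD45+ cells against 1.60, 1.68 and 1.04 in CD45- cells (2.99 ± 0.39, adjusted p = 0.000790).

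Leukocyte-group cells made up 9.25%, 6.80% and 1.81% of the CD45- sort, early to late. With leukocyte groups alone in the CD45+ sum and other groups alone in the CD45- sum, 5 members again were higher and 2 lower. The log2 fold change then was 5.91 for Entpd1, 4.37 for Adora3 and 9.63 for P2ry6, which had 2 UMIs in those CD45- groups together. Scaling by library totals alone moved the median log2 fold change of all genes from -0.04 to -0.40 and again called 5 members higher and 2 lower.

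The genes are placed on mouse build GRCm38. Entpd1 (ENSMUSG00000048120) spans chr19:40612366-40741602 on the plus strand, Nt5e (ENSMUSG00000032420) chr9:88327197-88372092 on the plus strand, and Adora3 (ENSMUSG00000000562) chr3:105870858-105908926 on the plus strand. P2rx7 (ENSMUSG00000029468, chr5:122643911-122691432) and P2rx4 (ENSMUSG00000029470, chr5:122707544-122729738) are neighbours on the plus strand. Adora3 shares its locus and strand with Tmigd3, which had 18 UMIs against 1065 for Adora3, and reads of the shared stretch cannot be told apart. Adora1 (ENSMUSG00000042429, chr1:134199223-134235431, minus strand) overlaps Mybph on the other strand, which had 56 UMIs against 1766.

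RefSeq promoter windows, 250 bases before to 50 after a start site on GRCm38.p6, matched 8 of the 10 members. Of these, 4 are printed: Entpd1, Adora3 and P2rx7, all found in microglia-like cells, and Nt5e, nearly absent from them. P2rx4 was found in microglia-like cells too and is not printed, so the 4 are a selection. Where a gene had 2 windows (Entpd1 and P2rx7), the one with a match is shown. Capitals mark AGGAAG, the core bound by ETS factors such as PU.1 of myeloid cells, on either strand, and its longer form GAGGAAGT, which contains it.
Entpd1, plus strand, chr19:40659520-40659819: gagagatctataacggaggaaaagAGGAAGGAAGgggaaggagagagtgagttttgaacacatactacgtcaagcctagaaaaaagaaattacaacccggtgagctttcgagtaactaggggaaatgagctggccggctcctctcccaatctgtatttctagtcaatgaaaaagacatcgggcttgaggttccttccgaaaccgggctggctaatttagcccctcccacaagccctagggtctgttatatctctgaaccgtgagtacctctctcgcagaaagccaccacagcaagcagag
Adora3, plus strand, chr3:105904171-105904470: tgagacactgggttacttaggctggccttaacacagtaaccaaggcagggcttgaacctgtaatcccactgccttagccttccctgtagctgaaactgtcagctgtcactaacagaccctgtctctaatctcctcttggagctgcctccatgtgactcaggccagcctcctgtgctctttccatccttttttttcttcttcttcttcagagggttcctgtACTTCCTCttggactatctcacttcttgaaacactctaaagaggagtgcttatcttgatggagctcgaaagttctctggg
P2rx7, plus strand, chr5:122650133-122650432: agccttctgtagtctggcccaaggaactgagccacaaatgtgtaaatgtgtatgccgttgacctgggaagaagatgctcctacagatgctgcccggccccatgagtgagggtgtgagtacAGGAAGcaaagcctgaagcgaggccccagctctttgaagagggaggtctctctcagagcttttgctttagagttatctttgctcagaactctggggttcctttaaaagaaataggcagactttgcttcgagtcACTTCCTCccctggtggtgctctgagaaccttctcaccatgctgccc
Nt5e, plus strand, chr9:88327359-88327658: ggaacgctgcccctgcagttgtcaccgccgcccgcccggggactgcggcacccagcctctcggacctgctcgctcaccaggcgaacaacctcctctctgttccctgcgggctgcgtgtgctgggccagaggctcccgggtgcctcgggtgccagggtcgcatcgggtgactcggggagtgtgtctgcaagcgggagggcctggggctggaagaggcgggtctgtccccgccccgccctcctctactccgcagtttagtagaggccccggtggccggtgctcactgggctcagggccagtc
GAGGAAGT was present in the Adora3 and P2rx7 windows and in 3.20% of all 32851 windows, and AGGAAG in 35.4% of them. The Entpd1 window held AGGAAG at 2 positions and the Nt5e window held neither, and the other windows of Entpd1 and P2rx7 held neither. Among the windows not printed, AGGAAG was also present in that of Ada and in 1 of the 2 of Adora1, which was higher in CD45- cells, and absent from those of Adora2b and P2rx4, which was higher in CD45+ cells. A match is a description of these letters, not a binding site. The Nt5e window had 23 CG pairs and the Adora3 window 1, against a median of 7 over all windows.

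Within the sorts, each member had its own pattern of cell groups. Levels are CPM per group and tumor sample, averaged over the samples with at least 50 cells of the group, with leukocyte groups taken from the CD45+ sort and the others from the CD45- sort. These levels were compared without a test.

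**Figure D2:**
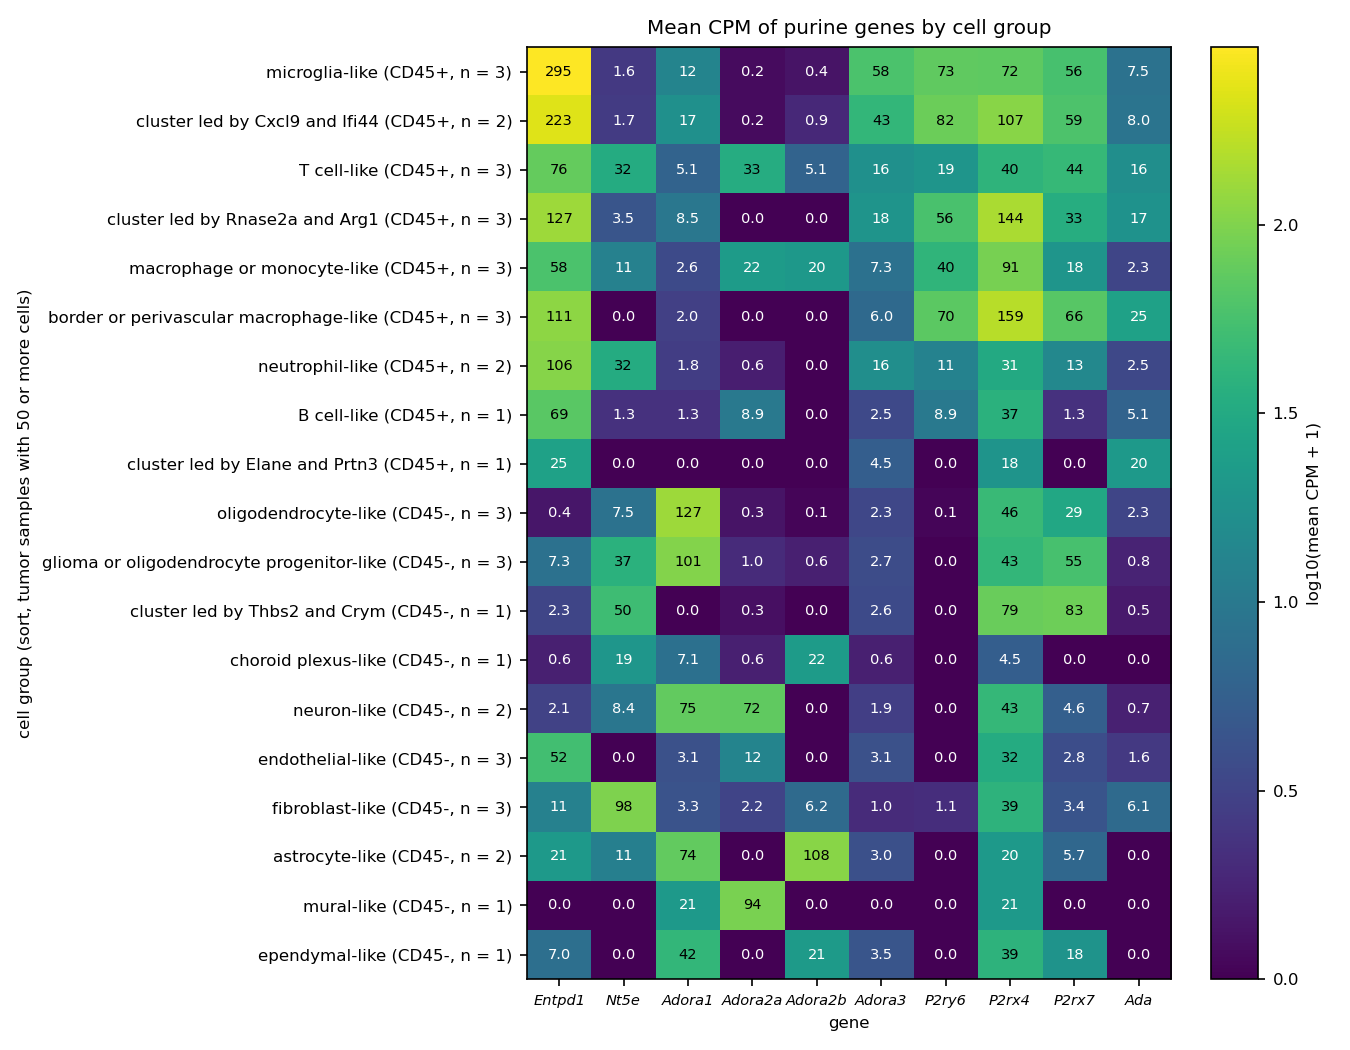
Mean CPM (numbers in the cells; colour on a log10 scale with 1 added) of the 10 genes (x axis) in each cell group (y axis, with its sort and the number of tumor samples averaged). Entpd1 peaked in microglia-like cells, Nt5e in fibroblast-like cells, Adora1 in oligodendrocyte-like cells, Adora2b in astrocyte-like cells and P2rx4 in border or perivascular macrophage-like cells.

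Entpd1 was highest in microglia-like cells, at 361 CPM early, 259 medium and 267 late (mean 295 ± 56.8, SD, n = 3). Of the 5465 Entpd1 UMIs counted in groups of the matching sort, these cells held 73.3%, and they were 34.9% of the cells in those groups. Next came the cluster led by Cxcl9 and Ifi44, which also carried MHC class II genes, at 223 ± 58.2 (SD, n = 2), a range that overlapped that of microglia-like cells. The cluster led by Rnase2a and Arg1 was at 127 ± 30.9 (n = 3), border or perivascular macrophage-like cells at 111 ± 17.3 (n = 3) and neutrophil-like cells at 106 ± 72.9 (n = 2), without a gap between their ranges. Outside the leukocytes, endothelial-like cells, which line vessels and are known for CD39, had 52.2 ± 4.49 (SD, n = 3). Over their cells of all samples Entpd1 was at 15.8% and 9 microglia markers together at 17.7% of the microglia-like level, with Adora3 at 5.72% and P2ry6 at 0%. The marker sum did not always go with Entpd1. It was at 21.1% in a cluster led by Thbs2 and Crym, where Entpd1 was at 0.68%, and at 8.62% in astrocyte-like cells, where Entpd1 was at 5.39%. In the whole CD45- sort the marker sum was at 1749, 1601 and 1983 CPM, early to late. It did not follow the share of leukocyte-group cells there, which was 9.25%, 6.80% and 1.81%. The part of microglial RNA in the endothelial-like value was not tested. Oligodendrocyte-like cells had 4 UMIs in 2730 cells.

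UMIs of microglia markers were found in the other leukocyte groups too. The 9 microglia markers together were at 11.7 to 18.2% of their microglia-like level in T cell-like cells, where Entpd1 was at 16.99 to 29.7%, Adora3 at 22.9 to 33.2% and P2ry6 at 23.96 to 26.4%. In neutrophil-like cells the markers were at 22.0% early and 6.32% medium and Entpd1 at 43.5% and 20.9%, and in B cell-like cells of the medium sample they were at 6.79% and Entpd1 at 26.5%. The markers were highest, at 60.6% early and 42.2% medium, in the cluster led by Cxcl9 and Ifi44, where Entpd1 was at 73.3% and 70.4%, and at 31.5 to 40.8% in the cluster led by Rnase2a and Arg1, where Entpd1 was at 34.3 to 57.1%. In macrophage or monocyte-like cells the markers were at 9.60 to 10.1% and Entpd1 at 6.20 to 39.2%. In border or perivascular macrophage-like cells the markers were at 17.7 to 19.8% and P2ry6 at 80.0 to 131%, far above them. Whether these UMIs were carried over from microglia or came from the cells themselves was not tested.

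Nt5e was highest in fibroblast-like cells, at 70.3, 121 and 102 CPM (early, medium, late; 97.8 ± 25.4, SD, n = 3), and the next value in any group with 2 or more samples was 69.4 in medium T cell-like cells. The 83 Nt5e UMIs of fibroblast-like cells lay in 23 of 221 cells. Glioma or oligodendrocyte progenitor-like cells had 37.3 ± 12.5 (n = 3), T cell-like cells 32.2 ± 32.2 (n = 3) and neutrophil-like cells 32.1 ± 4.96 (n = 2). A cluster led by Thbs2 and Crym, nearly all of it from the late sample, had 49.7 CPM there, and it carried the human EGFR transgene in 473 of 530 late cells. Together the progenitor-like cells and this cluster held 25.1% and 26.6% of the Nt5e UMIs counted in groups of the matching sort. Microglia-like cells had 16 Nt5e UMIs in 5879 cells, and border or perivascular macrophage-like cells had 0 in 461, which allows up to 2.98 CPM.

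Cells with UMIs of both ectonucleotidases were few, and Nt5e was rare in these groups as a whole. Of 2389 microglia-like cells with Entpd1, 8 had Nt5e too. T cell-like cells held 105 cells with Entpd1 and 47 with Nt5e, and 1 with both. The median depth was 1911 UMIs per microglia-like and 1890 per T cell-like cell, so a cell that lacks a UMI of a gene may still express it.

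Ada was low throughout. It was highest in border or perivascular macrophage-like cells, at 18.3, 27.4 and 29.3 CPM in early, medium and late samples (25.0 ± 5.87, SD, n = 3). The cluster led by Rnase2a and Arg1 had 17.1 ± 12.2 and T cell-like cells 15.6 ± 5.68 (n = 3 each), with overlapping ranges. Microglia-like cells had 7.46 ± 3.48 and oligodendrocyte-like cells 2.29 ± 0.57 (n = 3 each).

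The adenosine receptors each had a different leading group. Adora1 was highest in oligodendrocyte-like cells, at 108, 142 and 129 CPM (early, medium, late; 127 ± 16.9, SD, n = 3), and 57.3% of the UMIs counted in groups of the matching sort came from them. Progenitor-like cells had 101 ± 103 (n = 3), neuron-like cells 75.3 ± 5.86 (n = 2) and astrocyte-like cells 73.8 ± 6.87 (n = 2). The ranges of the neuron-like and astrocyte-like cells overlapped each other and lay below that of oligodendrocyte-like cells, while progenitor-like cells spanned all of them. With each cell weighted equally, the progenitor-like mean (129 ± 101) was above the oligodendrocyte-like one (128 ± 15.8). In the late sample 0 Adora1 UMIs were seen in the cluster led by Thbs2 and Crym, which allows up to 0.77 CPM, against 29.9 in the progenitor-like cells.

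Among groups with 2 or more samples Adora2a was highest in neuron-like cells, at 50.2 in the early and 93.9 in the late sample (72.1 ± 30.9, SD, n = 2), and the receptor is known from striatal neurons. The 131 Adora2a UMIs of neuron-like cells lay in 26 of 354 cells. T cell-like cells followed with 28.3, 39.5 and 31.4 (33.1 ± 5.79, n = 3), below the neuron-like range, and then macrophage or monocyte-like cells with 21.9 ± 10.7 (n = 3). Mural-like cells of the early sample, the only one with 50 or more of them, had 94.1. In microglia-like cells 2 Adora2a UMIs were found.

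Adora2b was highest in astrocyte-like cells, at 101 in the early and 115 in the medium sample (108 ± 10.0, SD, n = 2). Among groups with 2 or more samples, macrophage or monocyte-like cells were next with 14.8, 21.9 and 22.1 (19.6 ± 4.15, n = 3), and no other leukocyte group reached that range. Choroid plexus-like cells had 21.9 and ependymal-like cells 21.1, each in 1 sample.

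Adora3 was found mostly in microglia-like cells. They had 62.7, 51.4 and 60.8 (early, medium, late; 58.3 ± 6.06, SD, n = 3) and 74.7% of the UMIs counted in groups of the matching sort. The cluster led by Cxcl9 and Ifi44 had 42.8 ± 23.2 (n = 2), an overlapping range, while border or perivascular macrophage-like cells had only 5.99 ± 4.23 (n = 3).

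P2ry6 was spread over several myeloid groups. Cells of the cluster led by Cxcl9 and Ifi44 had 82.2 ± 51.1 (SD, n = 2), microglia-like cells 73.2 ± 18.3 (n = 3), border or perivascular macrophage-like cells 69.5 ± 0.86 (n = 3) and the cluster led by Rnase2a and Arg1 56.5 ± 10.7 (n = 3). All of these overlapped the microglia-like range, and the border or perivascular macrophage-like values lay above those of the cluster led by Rnase2a and Arg1. Progenitor-like cells had 0 P2ry6 UMIs in 1201 cells, which allows up to 0.52 CPM.

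P2rx4 was found in every group. It peaked in border or perivascular macrophage-like cells, at 176, 154 and 146 (early, medium, late; 159 ± 15.3, SD, n = 3). The cluster led by Rnase2a and Arg1 had 144 ± 33.1 (n = 3), the one led by Cxcl9 and Ifi44 107 ± 22.5 (n = 2), macrophage or monocyte-like cells 91.2 ± 10.9 (n = 3) and microglia-like cells 71.5 ± 17.9 (n = 3), each overlapping the next group in this order. Outside the leukocytes it was at 79.1 in the cluster led by Thbs2 and Crym, 46.4 ± 5.09 in oligodendrocyte-like and 42.6 ± 5.87 in progenitor-like cells (n = 3 each), the last pair with overlapping ranges.

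P2rx7 crossed the sorts. Border or perivascular macrophage-like cells had 66.1 ± 22.8 (SD, n = 3), microglia-like cells 55.8 ± 10.0 and progenitor-like cells 55.2 ± 8.97 (n = 3 each), and these ranges overlapped. The cluster led by Thbs2 and Crym had 82.7 in the late sample, where progenitor-like cells had 45.1. In that cluster 97 of 183 cells with P2rx4 also had P2rx7, against 28.1% of the cells without P2rx4. The cells with P2rx4 were deeper, with a median of 9728 UMIs against 4539, so depth moved with this overlap and its part was not tested.

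For each member the genes with the most similar pattern were found over 41 sums of 19 groups and the tumor samples, as Pearson's r of log2(CPM + 10) among 14677 genes. P2ry6 followed C3ar1 (r = 0.965), Cd86 (0.963) and Cd68 (0.960), and Entpd1 followed Tmem173 (0.915), Lyn (0.909) and Ptgs1 (0.903). Adora3 was most like Ccr6 (0.91), Capn3 (0.90) and Mlxipl (0.88). Adora1 was most like Nhlrc1 (0.90), Kcnq3 (0.87) and Erbb4 (0.87), and Adora2b like Slc39a12 (0.80), Agt (0.78) and Cldn10 (0.77), the last 3 genes of astrocytes and epithelia. P2rx4 was nearest Erp29 (0.81), Cd36 (0.81) and Ms4a7 (0.80), and P2rx7 nearest Abhd12 (0.74), Noct (0.72) and Erf (0.72). Nt5e was nearest Adamts5 (0.74), Obsl1 (0.70) and Col8a1 (0.70), Adora2a nearest Cdyl2 (0.73), Hivep2 (0.71) and Ugcg (0.70), and Ada nearest Cd200r4 (0.75), Ccl8 (0.71) and 1600002K03Rik (0.71). The sums share libraries and depth, and these correlations are given as a description.

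The next comparison set macrophage or monocyte-like cells against microglia-like cells. Macrophage or monocyte-like cells had more Adora2a and Adora2b and less Entpd1, Adora3, P2rx7 and P2ry6 than microglia-like cells of the same CD45+ sorts. This class was 1 cluster led by the dendritic cell gene Xcr1, the monocyte gene Ccr2 and Ms4a4c, so its leading genes marked dendritic cells beside monocytes. It had 126, 370 and 72 cells (early, medium, late) against 3946, 886 and 1047. With finer clustering a macrophage or monocyte-like cluster held 305 cells and a dendritic cell-like cluster 270, so the name covers both kinds of cell here. Of the members, 7 passed the filter on low counts and 6 passed the test, 2 higher and 4 lower, against 27.6% of 10459 genes (15.1% higher, 12.4% lower). The 2 higher ones, Adora2a and Adora2b, met the filter only through the macrophage or monocyte-like sums. A higher call was thus the only one open to them, and these 2 calls cannot be set against the background. Nt5e, Adora1 and Ada were not tested.

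**Figure D3:**
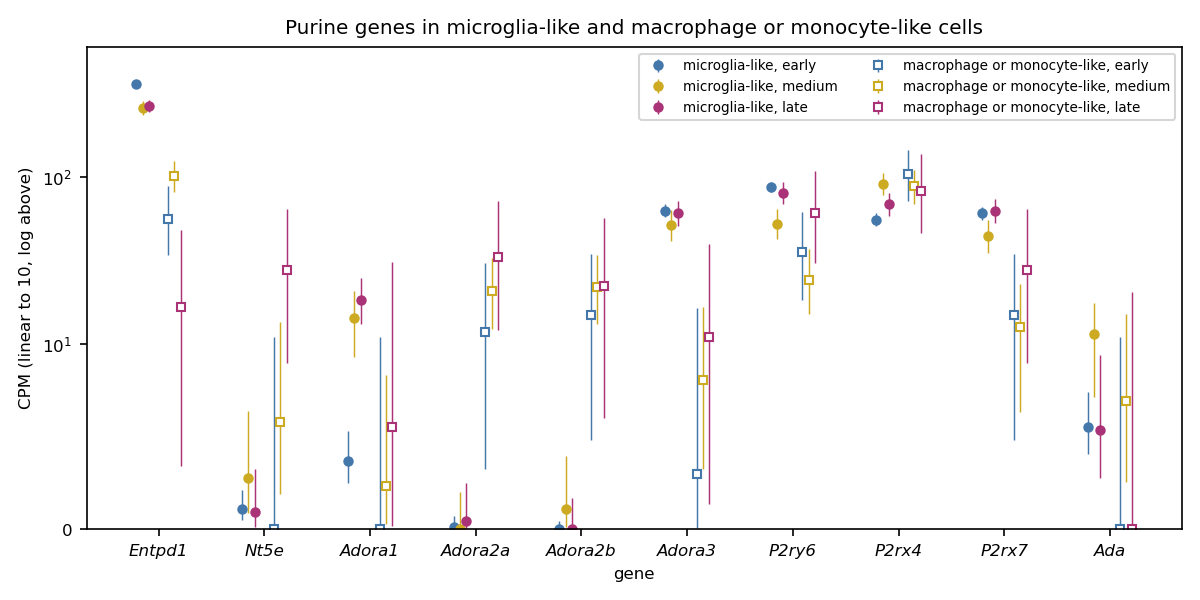
CPM (y axis, linear to 10 and logarithmic above) of the 10 genes (x axis) in microglia-like (filled circles) and macrophage or monocyte-like cells (open squares) of each tumor sample, with 95% Poisson intervals for counting error. Entpd1 and Adora3 were lower, and Adora2a and Adora2b higher, in macrophage or monocyte-like cells of all 3 samples.

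Entpd1 was at 56.1, 101 and 16.5 CPM in the macrophage or monocyte-like cells of the early, medium and late sample, below the microglia-like values of 361, 259 and 267 (log2 fold change -2.11 ± 0.35, SE; edgeR adjusted p = 0.00147). Adora3 was at 2.96, 8.06 and 11.03 against 62.7, 51.4 and 60.8 (-2.88 ± 0.44, adjusted p = 5.15e-05). Neither overlapped. P2rx7 was at 14.8, 12.7 and 27.6 against 60.4, 44.3 and 62.6 (-1.61 ± 0.37, adjusted p = 0.00224), and its call was lost with finer clustering (adjusted p = 0.0851) and with cells classed one by one (0.246). P2ry6 was at 35.5, 24.2 and 60.6 against 87.0, 52.5 and 80.1, ranges that overlapped (-0.87 ± 0.30, adjusted p = 0.0343). That call was lost under 5 of the alternatives, with adjusted p between 0.118 and 0.288.

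Adora2a had 28 UMIs in the 568 macrophage or monocyte-like cells and 2 in the 5879 microglia-like cells. The ratio of their levels, from UMIs pooled over samples with unlike shares of the 2 classes, was 123 (95% interval 31.0 to 1066, for counting error). The adjusted p from edgeR was 2.11e-05. Adora2b had the same counts and hence the same pooled ratio, with an edgeR adjusted p of 8.87e-05. Both genes passed the filter only through the macrophage or monocyte-like sums, so the test could call them only higher. As means over the 3 samples, Adora2a was at 21.9 against 0.19 CPM and Adora2b at 19.6 against 0.36. The 780 cells of the cluster led by Rnase2a and Arg1 held 0 UMIs of Adora2a and of Adora2b, as did the 461 border or perivascular macrophage-like cells. Both genes failed the filter on low counts without the medium sample, which held 18 of the 28 Adora2a and 19 of the 28 Adora2b UMIs. With finer clustering the class split: Adora2b was at 30.2 CPM in the macrophage or monocyte-like cells and 5.28 in dendritic cell-like cells, while Adora2a was at 9.34 and 23.5 (n = 2 samples each). Adora2a then failed the filter on low counts and was not tested, so its call was lost, and Adora2b kept its call (adjusted p = 1.64e-16). P2rx4 was at 103, 87.5 and 82.7 against 55.4, 90.8 and 68.4 and did not pass (0.46 ± 0.26, adjusted p = 0.214).

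Of the 36 other purine genes listed, 30 were tested between the sorts. In CD45+ cells 11 were higher and 6 lower and 13 did not pass, beside 46.1% of all genes called (20.4% higher, 25.7% lower), and the median log2 fold change was 0.38 against -0.04 over all genes. With library totals alone, 10 were higher and 10 lower. P2Y receptors gave 3 higher and 1 lower of 6 tested, ectoenzymes 1 higher and 3 lower of 7, and adenosine uptake and metabolism 5 higher and 1 lower of 13. The largest rises were in the ADP receptor P2ry13 (474 ± 309 against 29.5 ± 28.7 CPM, SD over 3 samples; log2 fold change 4.60), the ATP-gated channel P2rx1 (6.28 ± 2.60 against 0.45 ± 0.17; 4.12) and P2ry12, the microglial ADP receptor (1520 ± 1138 against 134 ± 120; 3.93). The largest falls were in the channel gene Panx2 (-3.51), the ectonucleotidase Entpd2 (-3.15) and the phosphatase Alpl (-3.13). Enzymes that hydrolyse extracellular nucleotides were thus found on both sides.

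Between macrophage or monocyte-like and microglia-like cells 17 of the 36 were tested, of which 3 were higher and 5 lower, beside 27.6% of all genes called (15.1% higher, 12.4% lower), with a median of -0.53 against -0.05 over all genes. Dpp4, which encodes a peptidase, was higher (51.3 ± 7.54 against 0.51 ± 0.55 CPM, SD, n = 3; log2 fold change 7.33), with 3 UMIs in all microglia-like cells. Like Adora2a and Adora2b, it passed the filter only through the macrophage or monocyte-like sums. P2ry14, a receptor for UDP-sugars, rose by 2.58 and the nucleotidase Nt5c by 1.18 on the log2 scale. P2ry12 (-4.30), P2ry13 (-3.70) and the lysosomal nucleoside transporter Slc29a3 (-1.70) were lowest. Both ADP receptors were thus lower in the same cells as Entpd1.

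Within groups, stages were compared as ratios with counting intervals and no test, since each stage was 1 sample. Of 92 member ratios in 10 groups with at least 100 cells at both stages and 20 UMIs, 19 (20.7%) were at least 2-fold. Over all genes and all such ratios 16.8% were, so the members stood near the background. Most ratios of P2rx4 (16 of 17) and P2ry6 (8 of 9) stayed within 2-fold, and 4 of 8 ratios of Nt5e and 5 of 11 of Adora1 were past it. Ratios of one group share samples, and these counts were not tested against each other.

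**Figure D4:**
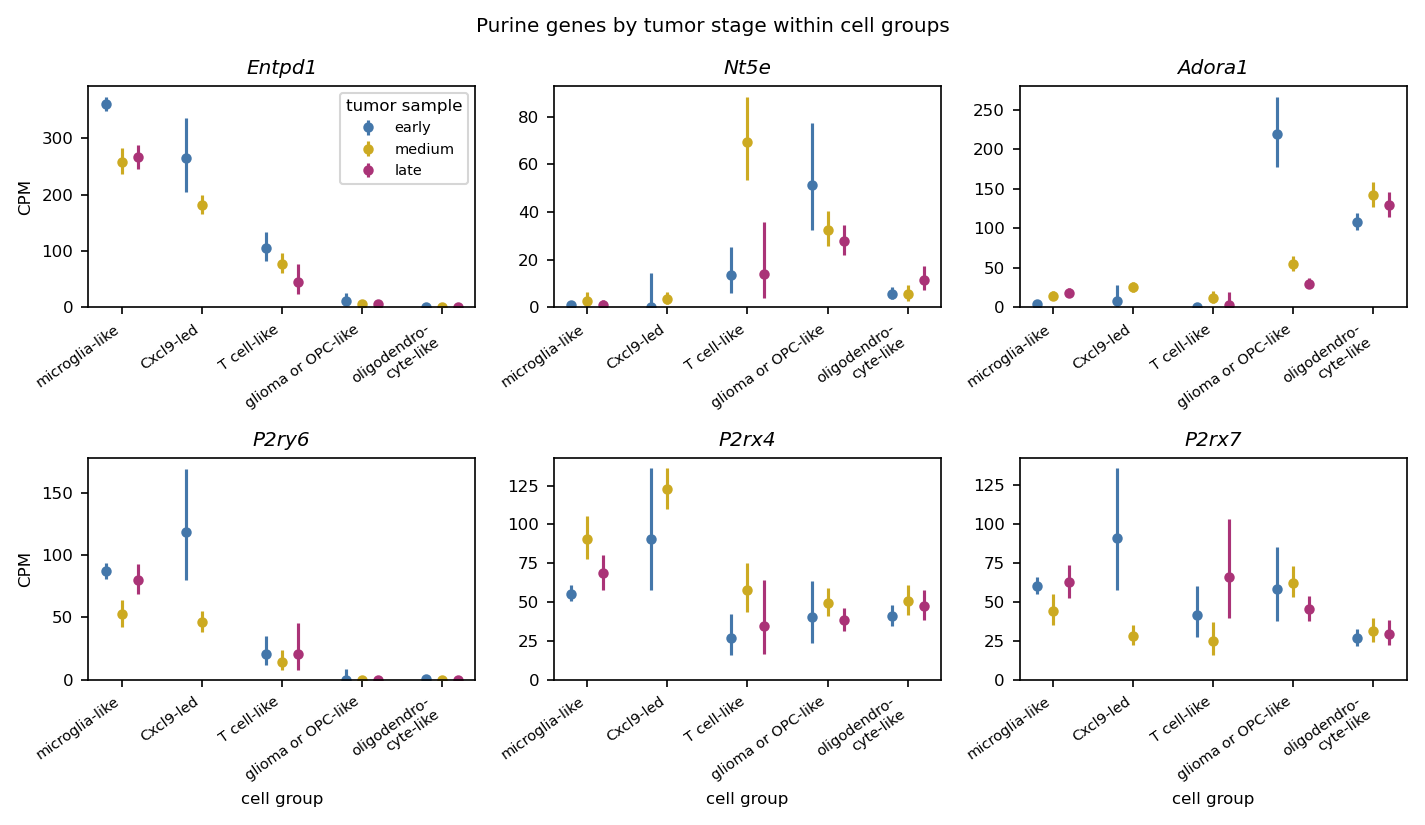
CPM (y axes, from 0) of 6 genes in 5 cell groups (x axis; OPC, oligodendrocyte progenitor) of the early, medium and late tumor sample, shown where a sample had at least 100 cells of the group. Bars are 95% Poisson intervals for counting error; Adora1 in progenitor-like cells was at 219 early and 29.9 late, and Nt5e peaked at 69.4 in medium T cell-like cells.

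In microglia-like cells Entpd1 was lower in the medium (259 CPM) and late (267) samples than in the early one (361). The log2 ratios were -0.48 (95% interval -0.62 to -0.34) for medium over early and -0.44 (-0.57 to -0.31) for late over early, under 2-fold. Within the second run they were -0.51 and -0.48 and within the third -0.36 and -0.37. The runs and clusters of a stage come from 1 tumor sample and are not repeats of the stage. All 5 microglia-like clusters with 50 or more cells in the early and medium samples were lower in the medium one, and 6 of 6 were lower in the late one, a split chosen after seeing the data. Of the 2 clusters below that number of cells in the medium sample, one went the other way, at 269 early, 605 medium (52 UMIs in 42 cells) and 295 late (27 UMIs in 45 cells), and one was at 367 early and 312 medium (46 cells). P2rx4 was higher in the medium sample (0.71, 0.45 to 0.97), although in 3 of the 5 clusters and lower in the other 2, and P2ry6 was lower there (-0.73, -1.05 to -0.42).

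Adora1 in microglia-like cells was low but was past 2-fold, at 3.69, 14.2 and 18.3 CPM (early, medium, late). The log2 ratio was 1.95 (1.13 to 2.75) for medium over early, where 13.1% of genes were past 2-fold, and 2.31 (1.60 to 3.04) for late over early, where 8.83% were. It rested on 30, 26 and 41 UMIs. Of the microglia-like clusters with 50 or more cells at both stages it was higher in 4 of 5 (medium) and 5 of 6 (late). In these cells the 8 oligodendrocyte markers together were at 113, 68.9 and 86.8 CPM and the 8 progenitor markers at 8.36, 11.5 and 18.3, and the part of either in the ratio was not tested. Within the second run the ratios were 1.70 and 2.49, and within the third run late over early was 2.22. Ada was at 5.53, 11.5 and 5.37, with a medium over early ratio of 1.05 (0.23 to 1.83) and a late over medium ratio of -1.10 (-2.25 to -0.01), where 9.97% of genes were past 2-fold.

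The 7 microglia-like clusters were compared without a test. Over them the mean Entpd1 level was between 213 ± 148 (SD, n = 3) in the cycling cluster led by Mki67 and 341 ± 73.6 (n = 3) in the one led by Hspa1b, and their ranges overlapped. The cluster with Cxcl13 among its leading genes had the highest P2rx4 (103 ± 41.1, SD, n = 3) and the Hspa1b-led one the lowest (57.1 ± 8.38, n = 3). The Hspa1b-led cluster had the highest P2rx7 (96.2 ± 28.3, n = 3) and the one with Cxcl13 the lowest (47.5 ± 35.4, n = 3). The ranges of the highest and lowest cluster overlapped for P2rx4 and for P2rx7.

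In glioma or oligodendrocyte progenitor-like cells Adora1 was at 219 CPM early, 54.5 medium and 29.9 late. The log2 ratios were -2.01 (-2.39 to -1.62) for medium over early, where 32.6% of all genes were past 2-fold, and -2.87 (-3.30 to -2.44) for late over early, where 29.5% were. The cells compared were not alike: the human EGFR transgene had 0 UMIs in the 169 early cells, 1770 CPM in the medium and 2588 in the late ones. The clusters changed as well: cluster 14, seen in this group only in the medium sample, held 241 of its 425 cells, with Adora1 at 19.1. Within cluster 6, the Pdgfra-rich part of this group, Adora1 was at 226, 134 and 30.1, under 2-fold from early to medium. The transgene there was at 0, 1735 and 2596 CPM. Whether Adora1 was lower within one kind of cell in cluster 6 or the kind of cell changed cannot be told apart. P2rx7 was at 58.1, 62.3 and 45.1 and P2rx4 at 40.2, 49.2 and 38.2 over the same stages, within 2-fold. Entpd1 was at 11.2 early and 5.51 late, from 5 and 16 UMIs (-1.02, -2.54 to 0.78).

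In T cell-like cells Nt5e was at 13.4 CPM early, 69.4 medium and 13.9 late, from 9, 65 and 4 UMIs. The log2 ratio was 2.37 (1.36 to 3.56) for medium over early, where 15.9% of genes were past 2-fold, and -2.32 (-4.23 to -0.89) for late over medium, where 20.1% were. Within the second run medium over early was 1.88. The makeup of the group moved with stage: Cd8a was at 389, 221 and 199 CPM, Cd4 at 103, 189 and 216 and Foxp3, of regulatory T cells, at 5.96, 40.6 and 13.9. Il2ra, also a gene of regulatory and activated T cells, was at 47.7, 79.0 and 247 and so did not share the late drop of Foxp3. The checkpoint receptor gene Pdcd1 was at 26.8, 176 and 115, and the granzyme gene Gzma at 603, 187 and 516. The natural killer cell genes Ncr1 and Klre1 were at 62.6, 32.0 and 17.4 and at 40.2, 35.2 and 20.9. The part of these changes in the Nt5e ratio was not tested. Adora2a, the receptor for the product of Nt5e, stayed within 2-fold at 28.3, 39.5 and 31.4. P2rx4 differed past 2-fold, at 26.8 early and 57.6 medium (1.10, 0.31 to 1.96), as did P2rx7, at 24.6 medium and 66.2 late (1.43, 0.47 to 2.37). Entpd1 was lower late than early (-1.22, -2.20 to -0.36), where 18% of genes were past 2-fold, and the microglia markers in these cells were at 16.3% and 11.7% of their microglia-like level at those stages.

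In the cluster led by Cxcl9 and Ifi44, which held 118 early and 1212 medium cells, 3 receptors were at least 2-fold lower in the medium sample with intervals below 0, where 27.6% of genes were past 2-fold. P2rx7 was at 90.7 and 28.2 (log2 ratio -1.68, -2.37 to -0.94), P2ry6 at 118 and 46.1 (-1.36, -1.95 to -0.73) and Adora3 at 59.2 and 26.4 (-1.17, -1.98 to -0.26). Adora1 was past 2-fold in the other direction, at 7.89 and 25.3 from 2 and 68 UMIs, with an interval that held 0 (1.68, -0.23 to 4.75). Entpd1, at 264 and 182, stayed within 2-fold. The 9 microglia markers together were at 12565 CPM in the early and 6427 in the medium cells of this cluster, and their part in the 3 ratios was not tested. Oligodendrocyte-like cells, which were sampled well at every stage, kept Adora1, P2rx4 and P2rx7 within 2-fold in all ratios, and only Nt5e, at 5.48, 5.44 and 11.5, passed. Its late over early ratio was 1.07 (0.14 to 2.01) and its late over medium ratio 1.08 (0.01 to 2.22), where 9.37% and 7.15% of genes were past 2-fold. In the cluster led by Rnase2a and Arg1, where 20.9% of genes passed from medium to late, Adora3 was at 5.91 and 17.7, from 2 and 32 UMIs (1.59, -0.38 to 4.69).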

How the data were processed

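Cells of 3 tumor samples, 1 a stage, were profiled by inDrop in 24 libraries over 3 sequencing runs, with 4 technical libraries for each stage and sort. The authors deposited a table of UMI counts per gene and cell, not normalized, made with RapMap within bcbio-nextgen on GRCm38 (mm10 in the submitters' processing notes). Their methods name a removal of ambient RNA and of doublets, and whether these came before the deposited table is not given in the sources used here. They were not corrected again here, beyond Scrublet. Every deposited column was assigned through the deposited sheet of libraries (0 columns not used).

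Cells with at least 500 UMIs and 500 genes and at most 20% mitochondrial UMIs were kept. Scrublet, run per library except for the 2 with 17 and 91 cells, marked 113 of 17786 cells tested (0.635%), which were removed. Cells were clustered with scanpy 1.11.5 (2000 variable genes, 40 components, Leiden resolution 1, without purine, sex-linked and mitochondrial genes). A cluster was named from fixed markers at least 2-fold higher than in the rest and found in at least 10% of its cells. The 2987 cells of unnamed clusters are described by leading genes, and names rebuilt in this way may differ from those of the study.

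UMIs were summed per tumor sample and sort, or per sample and class, and tested with edgeR 4.0.16 (R 4.3.3; filterByExpr, TMM, quasi-likelihood, Benjamini-Hochberg over all genes tested) with the tumor sample as a block. The block follows from the origin, since both sorts and classes of a number came from one tissue sample. Deviations from the group means correlated within a sample, at 0.280 to 0.384 between sorts and 0.133 to 0.182 between classes. The scripts were tested on simulated data. With the block, p-values measure how far the difference between sorts or classes varied over the 3 tumor samples, with variance estimates shared across genes. Each sample was another stage, so stage and animal are mixed in this spread.

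Intervals (95%) and the limit set by a count of 0 (3 UMIs) cover counting error only. Alternatives were no block, library totals, no filter, DESeq2 1.42.0, each sample left out, other cell filters, finer clustering (resolution 2), classes called cell by cell, each library left out, and each run alone. The members, the list of 36 other purine genes and the tests were chosen with earlier results of these data known. Other purine genes were named by rule as the 3 largest rises and 3 largest falls called in each comparison, and genes of like pattern as the 3 highest correlations of each member. Normal brain was not analysed here, and 1 further allele of the mice is not reported here.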

Additional observations from a re-analysis of the deposited data

Results flagged for a closer look

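Adora1 had stage ratios of opposite sign in 2 cell groups. Its log2 ratio was -2.01 for medium over early and -2.87 for late over early in glioma or oligodendrocyte progenitor-like cells, against 1.95 and 2.31 in microglia-like cells. The difference between the groups was not tested, since each stage was 1 tumor sample. Early progenitor-like cells carried no transgene UMIs, and the part of this in the first ratio cannot be told apart from stage. Of the 425 medium progenitor-like cells, 241 were of a cluster seen only in that sample, with Adora1 at 19.1 CPM. Within cluster 6 it went from 226 early to 134 medium, under 2-fold.

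Nt5e was lower in the late than in the medium sample in T cell-like cells (log2 ratio -2.32) and higher in oligodendrocyte-like cells (1.08). This difference was not tested either, and the counts were small, with 65 and 4 UMIs in the first group and 12 and 23 in the second.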

How the results depend on the processing

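Between the sorts, the count of members called stayed within 1.5 times under all alternatives run, and 6 were called without the replicate block, where Nt5e was lost. The other purine genes numbered 16 without it, against 17. Between macrophage or monocyte-like and microglia-like cells, 6 members were called with or without the replicate block, 3 with clustering at resolution 2, and 3 to 6 when each sample was left out in turn. Without the medium sample Adora2a and Adora2b failed the filter on low counts and P2ry6 did not pass, and at resolution 2 Adora2a failed the filter and P2rx7 and P2ry6 did not pass. The group with the highest mean stayed for 8 to 10 of the 10 members: it became progenitor-like cells for Adora1 with each cell weighted equally and for P2rx7 with classes of single cells, and microglia-like cells for P2ry6 at resolution 2 and with classes of single cells. Of the other purine genes 5 were called with classes of single cells, against 8, and the cause was not tested. Of the stage ratios, 10 of the 60 available were at least 2-fold with classes of single cells, and 0 of 9 within the first run, 7 of 38 within the second and 2 of 28 within the third, fewer being available by construction. Leaving out each library gave 14 to 20, against 19 of 92. Over named purine genes, 376 fold changes kept their side of the threshold, uncalled ones being counted whatever their direction. Of the called ones 37 lost the call, and no called fold change reversed. Levels of members moved by more than the spread in 54 cases and not in 556, and stage ratios in 47 and not in 2431. Depth limited Adora2b, Ada and Adora2a the most, with 147, 259 and 320 UMIs in all.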

Other observations

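Members were also summed by role within cell groups. In microglia-like cells the ectonucleotidases Entpd1 and Nt5e together had 297 ± 56.4 CPM (SD, n = 3 tumor samples), the receptors P2ry6, P2rx4 and P2rx7 together 200.5 ± 11.96 and the adenosine receptors 70.9 ± 7.51. In border or perivascular macrophage-like cells these 3 receptors had 295 ± 37.1 and the adenosine receptors 7.95 ± 5.34, and in fibroblast-like cells the ectonucleotidases had 109 ± 22.9 and the 3 receptors 43.5 ± 16.4. In T cell-like cells the ectonucleotidases were at 108 ± 44.5 and the adenosine receptors at 59.6 ± 10.7. These are sums over genes and were not tested, and they leave out other P2 receptors such as P2ry12 and P2ry13.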
